A study of Mus musculus with 9 samples.

Results

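The fatty acid elongases and desaturases measured here were 10 mouse genes, 5 elongases of the Elovl family (Elovl1, Elovl2, Elovl3, Elovl5 and Elovl6), 3 desaturases of the Fads family (Fads1, Fads2 and Fads6) and 2 enzymes of the later steps of elongation (Hacd3 and Tecr). They were chosen by gene name from the gene table, which held 13 entries under these names among 52151 gene entries. Of the 13 entries, 10 held a known transcript, 1 for each gene, and the other 3 were made only of transcripts assembled from these libraries. The 10 entries are the subject of the comparisons, and all 10 were above the minimum level in every comparison. The entry named Fads6 also held transcripts of Fdxr, the ferredoxin reductase gene beside it, so its value cannot be assigned to Fads6 alone and it is called the Fads6 entry.

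Liver RNA was sequenced in 9 libraries of mice fed a liquid diet for 5 weeks. The pair-fed group (PF, n = 3) received the isocaloric control diet, the alcohol-fed group (AF, n = 3) received the Lieber-DeCarli diet with alcohol, and the AF with MNA group (n = 3) received the same alcohol diet with MNA injected intraperitoneally every day at 50 mg/kg. All mice were labelled as 8 weeks of age and, in PF and AF, as strain C57BL/6, while the labels of the AF with MNA libraries read C57BL/7, C57BL/8 and C57BL/9. The labels do not spell out MNA, no vehicle injection is named for PF or AF, so that injection and compound cannot be told apart, and the study's text describes only PF and AF. The methods describe male mice that were fasted before they were killed, with ad libitum access to the diet. Nothing states whether each library came from 1 mouse, and the p-values therefore measure the spread between libraries. Each value below is the level of an entry in FPKM, a fragment count divided by transcript length and by library size, so that it can be compared between genes.

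A fatty acid is lengthened in the endoplasmic reticulum by a cycle that adds carbons to its acyl-CoA. An Elovl enzyme condenses the acyl-CoA with malonyl-CoA and sets which chains enter the cycle, and the product is then reduced by a ketoreductase, dehydrated by a Hacd enzyme and reduced again by Tecr. Desaturases insert double bonds with electrons handed on by cytochrome b5. The liver uses Fads2 (the delta-6 desaturase), Elovl5, Fads1 (the delta-5 desaturase) and Elovl2 in turn to build long polyunsaturated fatty acids such as arachidonic acid and docosahexaenoic acid from dietary precursors. Elovl6 lengthens palmitate towards stearate next to fatty acid synthase, and Elovl1 and Elovl3 make saturated and monounsaturated chains of greater length. In liver the SREBP-1 and PPAR alpha transcription factors are known to control many of these genes.

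The table's pathway annotation placed 6 of the 10 genes in the biosynthesis of unsaturated fatty acids and 5 in fatty acid elongation, and 3 (Elovl3, the Fads6 entry and Hacd3) carried no pathway term. On GRCm38, Fads1 (chr19:10182888-10196877, plus strand) and Fads2 (chr19:10062765-10101746, minus strand) lie head to head with 81.1 kb between them. Fads3 follows 2.7 kb behind Fads2. Elovl3 (chr19:46131897-46135694, plus strand) is on the same chromosome, 1724.0 kb from Scd1, the stearoyl-CoA desaturase gene. The other members lie apart from each other: Elovl1 at chr4:118428093-118432953 (plus), Elovl2 at chr13:41182381-41220405 (minus), Elovl5 at chr9:77917364-77984519 (plus), Elovl6 at chr3:129532355-129638495 (plus), Hacd3 at chr9:64986983-65021693 (minus), Tecr at chr8:83571698-83607971 (minus) and the gene Fads6 at chr11:115279622-115297663 (minus).

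Start sites with RefSeq promoter windows on GRCm38.p6, of 250 bases before and 50 after the start, were found for 8 of the 10 genes, and the table used held no window for Elovl3 or Fads1. The 250 bases before the start are shown for Elovl5 and Fads2, the polyunsaturated fatty acid genes that were lower in AF, and for Elovl6, the gene with a window that varied most between libraries. Capitals mark 4 short motifs, CCAAT, the GC box GGGCGG, the E-box CACGTG and the nuclear receptor element AGGTCA, on either strand.
Elovl5 promoter, chr9:77917115-77917364, plus strand: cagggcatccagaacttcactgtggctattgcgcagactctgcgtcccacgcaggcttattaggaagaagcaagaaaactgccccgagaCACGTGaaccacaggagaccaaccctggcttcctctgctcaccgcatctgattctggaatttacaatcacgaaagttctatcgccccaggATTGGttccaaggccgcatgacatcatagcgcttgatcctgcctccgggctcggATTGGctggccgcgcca
Fads2 promoter, chr19:10101504-10101753, minus strand: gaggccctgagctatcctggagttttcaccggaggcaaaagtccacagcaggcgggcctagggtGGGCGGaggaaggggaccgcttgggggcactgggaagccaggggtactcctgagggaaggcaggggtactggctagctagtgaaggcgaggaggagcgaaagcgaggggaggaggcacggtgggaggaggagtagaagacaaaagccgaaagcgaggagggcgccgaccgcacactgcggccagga
Elovl6 promoter, chr3:129532136-129532385, plus strand: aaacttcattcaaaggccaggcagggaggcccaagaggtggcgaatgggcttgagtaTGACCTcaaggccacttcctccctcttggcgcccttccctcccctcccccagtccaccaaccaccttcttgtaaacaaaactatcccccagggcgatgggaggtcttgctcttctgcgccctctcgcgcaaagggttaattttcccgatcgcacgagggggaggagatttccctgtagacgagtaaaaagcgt
The Elovl5 window held CACGTG at position -161 from the start, letters found in 7.15% of all 32817 windows, and CCAAT on the opposite strand at positions -71 and -17, letters found in 37.4% of windows. The Fads2 window held GGGCGG at position -186, as in 35.6% of windows, and the Elovl6 window held AGGTCA on the opposite strand at position -193, as in 16.3%. None of the 8 genes had the letters TCACCCCAC, a known sterol response element, in its window, and these letters were in 0.552% of all windows. The GC content was 57.7% for Elovl5, 67.0% for Fads2 and 55.7% for Elovl6, against a median of 52.7% over all windows. No binding or chromatin data were measured, and a match describes the sequence only.

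Relative sequencing depth, recovered from the constant that links circular RNA counts to their normalized values, differed by up to 1.42 times between libraries. The table gives no gene counts, so precision was judged from the spread between libraries. The summed FPKM of the 6 hepatocyte markers (among them Alb, Apoa1 and Ttr) was between 14380 and 21590 in every library and overlapped between the groups, while the 5 detected Kupffer cell or macrophage markers summed to between 21.8 and 40.9. AF 3 and AF with MNA 1 stood apart from the other 7 libraries, because lncRNA transcripts inside introns summed to 9433.4 and 8934.1 FPKM in them and to between 2477.0 and 4936.7 in the others. In liver tissue, fewer cells of a type and less RNA per cell cannot be told apart.

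In PF liver the 10 entries spanned a wide range of levels, from a mean of 314 ± 58.8 FPKM (SD, n = 3) for Fads2 to 4.84 ± 0.606 FPKM for Elovl1. The order by mean was Fads2, Elovl5, Fads1, Elovl3, Tecr, Hacd3, Elovl2, Elovl6, the Fads6 entry and Elovl1. Neighbours in this order whose libraries overlapped were Elovl5 with Fads1 and each neighbouring pair from Elovl3 down to Elovl6. The polyunsaturated fatty acid genes Fads2, Elovl5 and Fads1 held the top of the order in all 3 groups. In AF the order was Fads2, Fads1, Elovl5, Tecr, Hacd3, Elovl2, Elovl6, the Fads6 entry, Elovl1 and Elovl3, so that Elovl3 moved from the 4th place in PF to the 10th. Fads2 and Fads1 overlapped in AF, and Fads1 was separate from Elovl5 and Elovl1 from Elovl3, while the other neighbours overlapped. With MNA the order was Fads2, Fads1, Elovl5, Tecr, Hacd3, Elovl6, Elovl2, Elovl3, the Fads6 entry and Elovl1, where Fads2 was separate from Fads1 and the Fads6 entry from Elovl1, and the other neighbours overlapped.

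**Figure D1:**
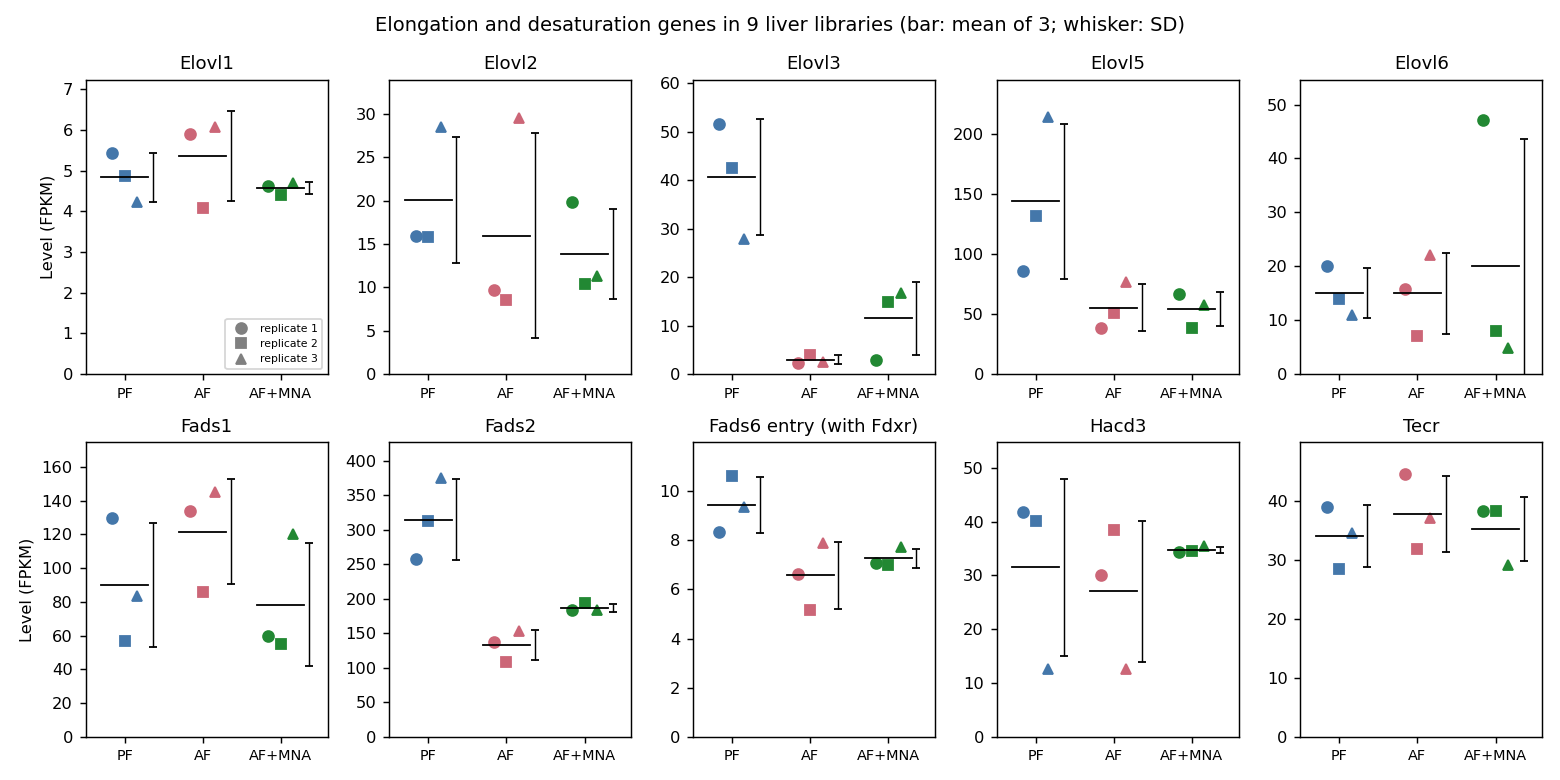
Level in FPKM (vertical axis, from 0) of each of the 10 entries in the 9 libraries, grouped as PF, AF and AF with MNA, with horizontal bars at group means and whiskers of 1 SD (the Elovl6 whisker is cut at 0 in AF with MNA). Elovl3 lay between 28.0 and 51.7 FPKM in PF and between 2.33 and 3.99 FPKM in AF, and Elovl6 reached 47.1 FPKM in AF with MNA 1 only.

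The comparison of AF with PF asks how the alcohol diet relates to liver gene levels in this model of alcoholic liver disease. Elovl3 fell in AF from 40.7 to 2.93 FPKM, the only member with an adjusted p under 0.05. Fads2 and Elovl5 were lower in every AF library than in any PF library, with means of 133 and 55.3 FPKM in AF against 314 and 144 FPKM in PF, with unadjusted p-values under 0.05. Fads1 was higher in mean, and Elovl1, Elovl2, Elovl6, Hacd3 and Tecr overlapped between the groups.

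Elovl3 lengthens saturated and monounsaturated chains and is known for its rhythm over the day in liver. Its level was 51.7, 42.5 and 28.0 FPKM in PF as compared to 2.33, 3.99 and 2.46 FPKM in AF. The groups were far apart, with the lowest PF library above the highest AF library. The difference was -3.39 on the log2(FPKM + 1) scale (SE 0.27, 95% confidence interval -4.03 to -2.75), with an adjusted p of 0.0073 (limma, Benjamini-Hochberg over 12273 genes), the 11th lowest p of all genes tested. The log2 ratio of the mean FPKMs was -3.80. An adjusted p under 0.05 was reached by 0.326% of all genes in this comparison, and by 0.147% with a lower level. In a linear model without moderation and with a library-size covariate the difference was -3.50 (unadjusted p = 0.00142, adjusted p = 0.264). In that model 0 of the 12273 genes had an adjusted p under 0.05. Over all 14 alternatives the adjusted p of Elovl3 ranged from 0.0067 to 0.264.

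Fads2, the delta-6 desaturase that starts the polyunsaturated branch, was measured at 257, 312 and 374 FPKM in PF and at 137, 109 and 153 FPKM in AF. The PF libraries all lay above the AF libraries. The difference was -1.23 (SE 0.21, 95% confidence interval -1.73 to -0.73, unadjusted p = 0.000745 from limma, adjusted p = 0.105). Over 14 alternatives the adjusted p of Fads2 ranged from 0.0274, with all 9 libraries in the fit, to 0.317, and no other alternative gave one under 0.05.

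Elovl5, which lengthens the products of Fads2, had levels of 86.3, 132 and 214 FPKM in PF as compared to 38.1, 51.0 and 76.8 FPKM in AF. The groups did not overlap, although the lowest PF library was close to the highest AF library. The difference was -1.33 (SE 0.39, 95% confidence interval -2.26 to -0.39, unadjusted p = 0.0124 from limma, adjusted p = 0.294). In the model with a library-size covariate it was -1.22 (unadjusted p = 0.106). An unadjusted p under 0.05 was kept in 13 of 14 alternatives. With the replicate number as a block it was 0.000386 (adjusted p = 0.128 from limma).

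The Fads6 entry, merged with Fdxr, was at 8.34, 10.6 and 9.37 FPKM in PF and at 6.64, 5.17 and 7.89 FPKM in AF. Here too the groups did not overlap, by a smaller margin. The difference was -0.48 (SE 0.17, 95% confidence interval -0.89 to -0.06, unadjusted p = 0.0305 from limma, adjusted p = 0.378), and it passed p under 0.05 no longer in 5 of 14 alternatives.

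Fads1, the delta-5 desaturase that makes arachidonic acid, went the other way in mean, with a PF mean of 90.0 ± 36.8 FPKM and an AF mean of 121.6 ± 31.4 FPKM. Its libraries were 129.6, 57.0 and 83.3 FPKM in PF as compared to 134, 86.0 and 145 FPKM in AF, and they overlapped. The difference was 0.47 (SE 0.34, 95% confidence interval -0.34 to 1.29, adjusted p = 0.641 from limma). Leaving out a library moved it from 0.19 without PF 2 to 0.77 without PF 1 (unadjusted p = 0.0444, adjusted p = 0.570 from limma).

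Elovl2 acts on the polyunsaturated chains that Elovl5 has made. It was at 15.9, 15.8 and 28.4 FPKM in PF and at 9.72, 8.60 and 29.6 FPKM in AF. Of the AF libraries, 2 lay below all PF libraries, and AF 3, a library rich in intron signal, was the highest of the 6. The difference was -0.47 (SE 0.48, 95% confidence interval -1.62 to 0.68, adjusted p = 0.748 from limma), and without AF 3 it was -1.0 (unadjusted p = 0.0158, adjusted p = 0.255). It was -0.16 without AF 2, -0.24 without AF 1, -0.20 without PF 3 and -0.18 in the model with a library-size covariate.

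Elovl6, which lengthens palmitate, was measured at 20.1, 14.0 and 10.9 FPKM in PF and at 15.8, 7.04 and 22.1 FPKM in AF. The means were 15.0 FPKM in each group, with AF 3 the highest of the 6 libraries. The difference was -0.09 (SE 0.41, 95% confidence interval -1.08 to 0.90, adjusted p = 0.955 from limma), an interval that holds changes of about 2-fold in each direction. Elovl1, with levels of 5.43, 4.87 and 4.22 FPKM in PF as compared to 5.90, 4.08 and 6.08 FPKM in AF, differed by 0.11 (95% confidence interval -0.30 to 0.52, adjusted p = 0.842 from limma).

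The shared enzymes of the cycle overlapped between the groups. Tecr, the enoyl reductase of the last step, was at 39.0, 28.5 and 34.5 FPKM in PF and at 44.6, 31.8 and 37.2 FPKM in AF, a difference of 0.15 (95% confidence interval -0.29 to 0.59, adjusted p = 0.802 from limma). Hacd3, a dehydratase of the third step, had levels of 41.8, 40.1 and 12.5 FPKM in PF as compared to 30.0, 38.4 and 12.6 FPKM in AF. PF 3 and AF 3 were thus at about 12.5 FPKM and the other 4 libraries at 30.0 FPKM or above, so the spread within each group was larger than the difference of -0.17 (95% confidence interval -1.54 to 1.20, adjusted p = 0.937 from limma). The cause of the low values in PF 3 and AF 3 was not tested.

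Over the 10 entries, 4 had an unadjusted p under 0.05 in AF against PF (Elovl3, Fads2, Elovl5 and the Fads6 entry), and all 4 were lower in AF. Among all 12273 genes tested, 11.7% had an unadjusted p under 0.05, and 6.57% had it with a lower level in AF. The same 4 entries were lower in AF without overlap between the groups, where 18.3% of all genes did not overlap and 10.1% were lower without overlap. A threshold of an unadjusted p under 0.05 from limma and a log2 ratio of mean FPKMs beyond 1, adapted from the one the study states for lncRNAs, was passed by Elovl3, Fads2 and Elovl5, and by 4.29% of all genes, 2.35% with a lower level. Of the 10 entries 7 had a difference below 0, as did 54.5% of all genes, and their median difference was -0.32 on the log2 scale against -0.03 over all genes.

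**Figure D2:**
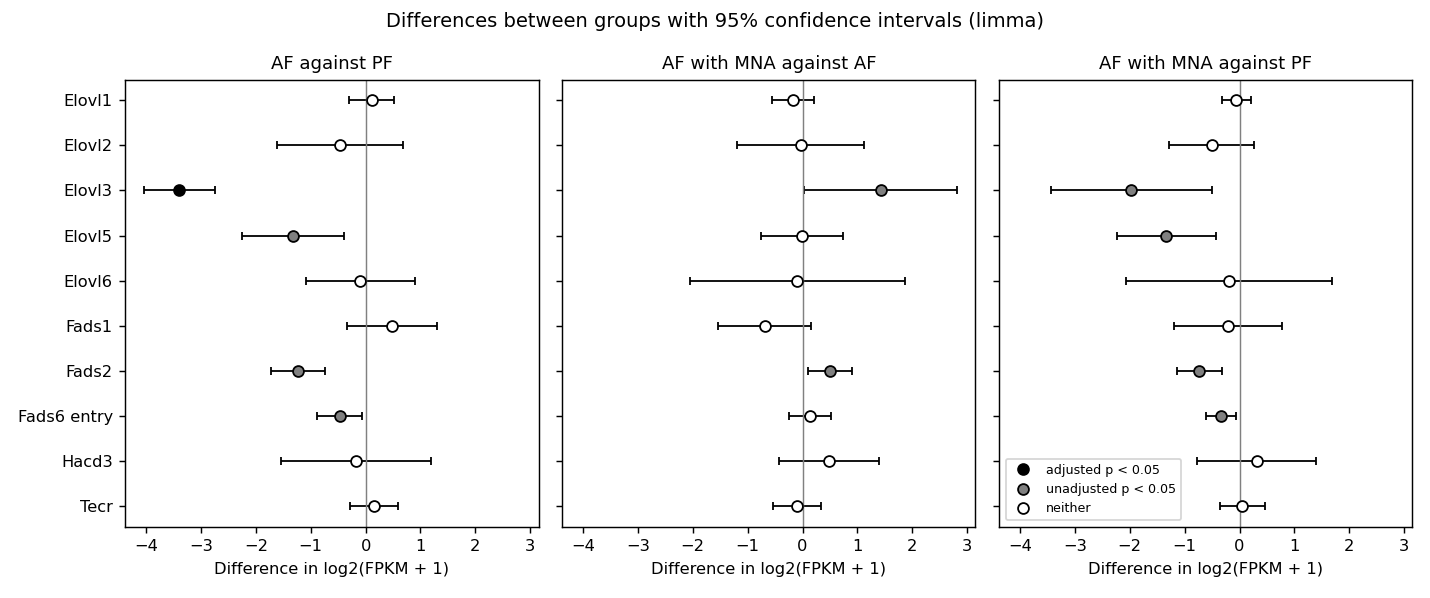
Difference between groups on the log2(FPKM + 1) scale (horizontal axis) for each of the 10 entries in the 3 comparisons, with 95% confidence intervals from limma, in black for an adjusted p under 0.05, grey for an unadjusted p under 0.05 and white for neither. Elovl3 in AF against PF, at -3.39, is the only black point, and Elovl6 in the comparisons with MNA has the widest intervals.

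The make-up of the elongase mRNAs was set mainly by Elovl5, which held between 47.3% and 75.0% of the summed level of the 5 Elovl genes in every library. This sum was 179.5, 208.7 and 285.7 FPKM in PF, 71.8, 74.8 and 137.1 FPKM in AF, and 141.2, 76.0 and 95.4 FPKM in AF with MNA. Every PF library was above the other 6 libraries in this sum. Elovl3 made up 28.8%, 20.4% and 9.79% of the sum in the PF libraries. Its share was 3.24%, 5.34% and 1.80% in the AF libraries and 2.08%, 19.5% and 17.6% in those with MNA. The share of Elovl6 was 33.4% in AF with MNA 1, the highest of the 9 libraries, where that of Elovl3 was as low as in AF.

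The ratio of Fads2 to Fads1, the delta-6 to the delta-5 desaturase, was 1.98, 5.47 and 4.49 in PF. It was 1.02, 1.27 and 1.06 in the AF libraries and 3.07, 3.52 and 1.53 in those with MNA. The ratio was thus close to 1 in the 3 AF libraries and higher in each of the other 6. The PF library nearest to AF, PF 1, was the one with the highest Fads1 in its group. These ratios are built from the levels above and are a description without a test.

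**Figure D3:**
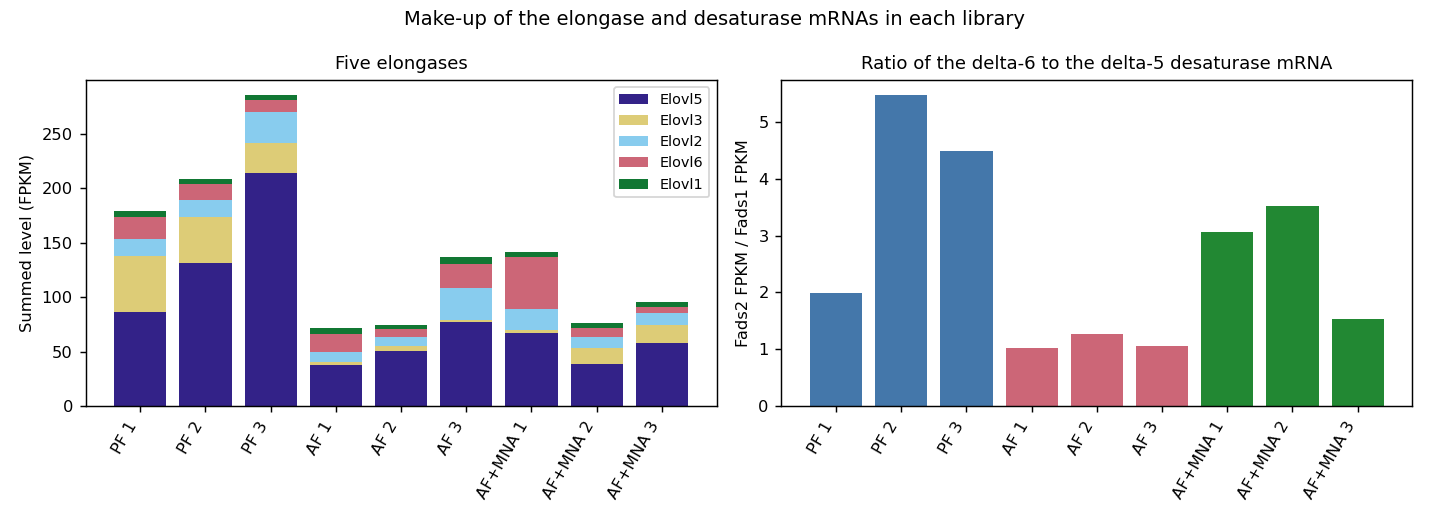
Left, the summed FPKM of the 5 elongase genes in each library, stacked by gene; right, the ratio of Fads2 to Fads1 FPKM in each library, both axes from 0. The PF bars are the tallest on the left (179.5 to 285.7 FPKM), and the AF bars are the lowest on the right (1.02 to 1.27).

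The comparison of AF with MNA against AF shows how levels differed when mice on the alcohol diet were also injected with MNA. Fads2 was higher in each AF with MNA library than in any AF library, by 0.50 on the log2 scale, and Elovl3 was higher in 2 of the 3 libraries. No member had an adjusted p under 0.05, and 0.0491% of the 12219 genes tested had one. Both groups received alcohol, and the AF libraries are the same as in the comparison with PF, so the values are set side by side without a test of their relation.

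Fads2 was at 183, 193 and 184 FPKM in AF with MNA, a narrow range as compared to 109 to 153 FPKM in AF. The difference was 0.50 (SE 0.17, 95% confidence interval 0.10 to 0.90, unadjusted p = 0.0211 from limma, adjusted p = 0.940). Without AF with MNA 2 the unadjusted p was 0.0642 and without AF with MNA 3 it was 0.0524.

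Elovl3 was at 2.93, 14.8 and 16.8 FPKM in AF with MNA. AF with MNA 1 lay within the AF range of 2.33 to 3.99 FPKM and the other 2 libraries lay above it, still below all PF libraries. The difference was 1.42 (SE 0.58, 95% confidence interval 0.03 to 2.81, unadjusted p = 0.0459 from limma, adjusted p = 0.940), and 8 of 15 alternatives took its unadjusted p to 0.05 or above, leaving out AF 1, AF 2, AF 3, AF with MNA 2 or AF with MNA 3 among them. Without AF with MNA 1 the difference was 2.12 (unadjusted p = 0.000119, adjusted p = 0.0967 from limma). Without the intron-rich libraries AF 3 and AF with MNA 1, an alternative added once the data had been seen, it was 2.04 (unadjusted p = 0.000835, adjusted p = 0.194).

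Fads1 was at 59.6, 54.9 and 120.3 FPKM in AF with MNA, 2 libraries below all AF libraries and AF with MNA 3 within their range. The difference was -0.69 (SE 0.35, 95% confidence interval -1.53 to 0.16, adjusted p = 0.940 from limma), and without AF with MNA 3 it was -1.04 (unadjusted p = 0.00918, adjusted p = 1.00). Without AF with MNA 2 it was -0.48, the smallest of the fits that left out a library.

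Elovl6 had the widest spread of all members in this group relative to its mean, at 47.1, 8.07 and 4.83 FPKM (coefficient of variation 117.6%). The intron-rich library AF with MNA 1 was the highest of the 9 libraries and the other 2 were among the 3 lowest of the 9. The difference from AF was -0.10 (95% confidence interval -2.06 to 1.86, adjusted p = 1.00 from limma), and it ranged from -1.01 to 0.52 when a library was left out. The group means ran the other way, at 20.0 FPKM with MNA and 15.0 FPKM in AF, a log2 ratio of means of 0.42. Elovl2, at 19.8, 10.4 and 11.4 FPKM, was also highest in AF with MNA 1, and its difference from AF was -0.03 (95% confidence interval -1.19 to 1.12). Without the intron-rich libraries AF 3 and AF with MNA 1 the difference from AF was -0.68 for Elovl6, 0.23 for Elovl2 and 0.039 for Hacd3. Whether the intron signal plays a part in these high values was not tested.

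The remaining members overlapped between AF with MNA and AF. Elovl5 was at 66.7, 38.3 and 57.7 FPKM, almost at the AF levels, with a difference of -0.01 (95% confidence interval -0.76 to 0.74). Elovl1 was at 4.63, 4.40 and 4.70 FPKM (difference -0.17, 95% confidence interval -0.55 to 0.21), and without AF 2 its difference was -0.33 (unadjusted p = 0.0265, adjusted p = 0.771 from limma). The Fads6 entry was at 7.08, 7.01 and 7.71 FPKM (difference 0.14, 95% confidence interval -0.24 to 0.53). Hacd3, the dehydratase, was at 34.4, 34.5 and 35.4 FPKM, without a low library in this group (difference 0.49, 95% confidence interval -0.43 to 1.40). Without AF 3 the difference of Hacd3 was 0.031. Tecr was at 38.3, 38.3 and 29.1 FPKM (difference -0.10, 95% confidence interval -0.54 to 0.34).

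In this comparison 2 of the 10 entries, Fads2 and Elovl3, had an unadjusted p under 0.05, both higher in AF with MNA. Among all genes 5.21% had an unadjusted p under 0.05, and 2.91% had it with a higher level. Fads2 alone did not overlap between the groups, where 10.1% of all genes did not overlap and 5.53% were higher without overlap. Elovl3 alone passed the adapted threshold, as did 1.98% of all genes, 1.03% with a higher level. The median difference of the 10 entries was -0.02 against 0.01 over all genes, with 6 of 10 below 0 as compared to 47.6% of all genes.

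Against PF, the AF with MNA libraries showed the same 4 entries below the PF range as AF did, and these comparisons share the PF libraries. Fads2 differed by -0.73 (SE 0.17, 95% confidence interval -1.13 to -0.33, adjusted p = 0.158 from limma), a smaller difference than the -1.23 of AF. Elovl5 differed by -1.33 (SE 0.37, adjusted p = 0.226 from limma), beside -1.33 for AF, and by -0.85 in the model with a library-size covariate (unadjusted p = 0.173). Elovl3 differed by -1.97 (SE 0.60, 95% confidence interval -3.44 to -0.50, adjusted p = 0.265 from limma), beside -3.39 for AF. This value for Elovl3 ranged from -2.36 without AF with MNA 3 to -1.27 without AF with MNA 1 when a library was left out, and it was -2.98 in the model with a library-size covariate. The Fads6 entry differed by -0.33 (SE 0.11, adjusted p = 0.287 from limma), beside -0.48 for AF, and its unadjusted p was not under 0.05 in 7 of 14 alternatives.

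None of the 10 had an adjusted p under 0.05 in this comparison, a call made for 0.423% of the 12281 genes tested. An unadjusted p under 0.05 was reached by these 4 entries and by 14.5% of all genes, 7.94% with a lower level. The 4 did not overlap with PF, as 21.4% of all genes did not, and 11.9% were lower without overlap. The adapted threshold was passed by Elovl3 and Elovl5, and by 3.88% of all genes, 1.95% with a lower level. The other 6 entries overlapped with PF, with differences of -0.50 for Elovl2, 0.31 for Hacd3, -0.21 for Fads1, -0.19 for Elovl6, -0.06 for Elovl1 and 0.05 for Tecr. Leaving out a library moved Elovl2 from -0.23 without PF 3 to -0.77 without AF with MNA 1 (unadjusted p = 0.0410, adjusted p = 0.350 from limma). Elovl6 was the entry most dependent on a single library here, with a difference of -1.10 (unadjusted p = 0.0165, adjusted p = 0.280 from limma) without AF with MNA 1, while its log2 ratio of means from all libraries was 0.41. The median difference of the 10 entries was -0.27 against -0.02 over all genes.

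The variation over the 9 libraries was largest for Elovl3 (SD of 1.62 on the log2 scale), followed by Elovl6 (0.92) and Elovl5 (0.81), and smallest for Elovl1 (0.17). For these 3 genes the most similar profiles among 12257 genes were found by the root mean square difference of centred log2(FPKM + 1) values over the 9 libraries. The genes nearest to Elovl3 were Cyp4a12b, a cytochrome P450 that hydroxylates fatty acids (0.45), Mup3, a major urinary protein gene (0.47), and Mup-ps19 (0.59). Cyp4a12b was at 22.2, 34.2 and 16.3 FPKM in PF, 0.99, 2.71 and 2.45 FPKM in AF and 0.31, 8.24 and 7.45 FPKM in AF with MNA. As with Elovl3, its AF with MNA 1 library was low and its AF with MNA 2 and 3 libraries lay between AF and PF. Cyp4a12b and the Mup genes have near-identical copies in the mouse genome, so the split of reads among the copies is uncertain.

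The genes nearest to Elovl6 were Twsg1 (0.49), Slc30a1, a zinc exporter (0.53), and Dsg1c (0.53). Each of the 3 was highest or within the top 2 in AF with MNA 1, and Slc30a1 reached 10.8 FPKM there against at most 1.97 FPKM elsewhere. The genes nearest to Elovl5 were RP24-397P9.2 (0.34), Sult1b1, a sulfotransferase (0.38), and 1810008I18Rik (0.38). Sult1b1 was at 3.98, 4.75 and 6.74 FPKM in PF, 2.16, 1.77 and 1.99 FPKM in AF, and 3.61, 1.56 and 2.74 FPKM in AF with MNA. As with Elovl5, PF 3 was the highest of the 9 libraries in all 3 of these genes. Likeness of profile is a description over 9 libraries.

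**Figure D4:**
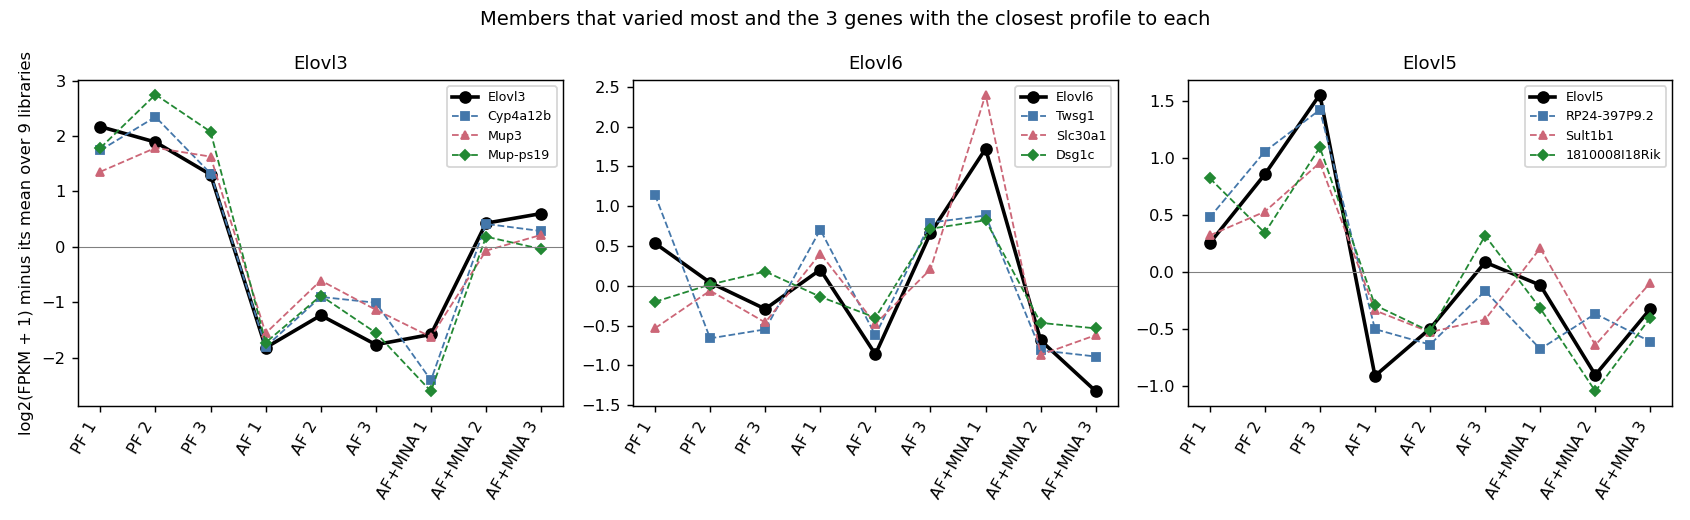
Centred log2(FPKM + 1) level (vertical axis, 0 at the gene's own mean) in the 9 libraries for Elovl3, Elovl6 and Elovl5 in black, each with the 3 genes of most similar profile. The Elovl3 panel shows the drop in the 3 AF libraries and in AF with MNA 1, and the Elovl6 panel shows the peak in AF with MNA 1.

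Other genes of the same and neighbouring pathways were read from 8 lists. Their counts are to be read against all genes, of which 11.7% had an unadjusted p under 0.05 in AF against PF, 5.21% in AF with MNA against AF and 14.5% in AF with MNA against PF. Of 14 other elongation and desaturation genes, 9 were tested in AF against PF, none had an adjusted p under 0.05, and the median difference was -0.15 against -0.03 over all genes. Hacd2, another dehydratase, lay between 1.88 and 3.98 FPKM in PF and between 4.10 and 5.03 FPKM in AF (difference 0.64, unadjusted p = 0.0314 from limma). Scd2, a stearoyl-CoA desaturase, differed by 0.50 (unadjusted p = 0.0364 from limma). Scd1, named after its values were seen because it is the main stearoyl-CoA desaturase of liver, was at 1799, 507 and 2623 FPKM in PF as compared to 1634, 1078 and 1213 FPKM in AF, above every member, with a difference of -0.06 (adjusted p = 0.984 from limma). Scd3, another stearoyl-CoA desaturase, lay between 0.53 and 0.85 FPKM in PF and between 0.28 and 0.49 FPKM in AF (difference -0.28, unadjusted p = 0.0633 from limma). Fads3, the neighbour of Fads2, was at 4.95, 10.1 and 13.8 FPKM in PF as compared to 4.31, 1.67 and 10.2 FPKM in AF, which overlapped (difference -0.88, adjusted p = 0.600 from limma).

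Cytochrome b5 and its reductases supply electrons to the desaturases. Of 5 tested genes of this electron supply, 0 had an unadjusted p under 0.05 in AF against PF, with a median difference of -0.02. Cyb5a, the microsomal cytochrome b5, was higher in AF with MNA than in PF by 0.69 (unadjusted p = 0.00806 from limma, adjusted p = 0.201), and Cyb5r1, a reductase, was lower by 0.25 (unadjusted p = 0.0458 from limma). Acyl-CoA synthetases, which activate fatty acids for the cycle, included no gene of 8 with an unadjusted p under 0.05 in AF against PF. Acsl1 differed by 1.05 between AF with MNA and AF (unadjusted p = 0.0292, adjusted p = 0.940 from limma).

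Fatty acid synthesis supplies the substrate of Elovl6. Of 10 tested genes, 2 had an unadjusted p under 0.05 in AF against PF, as compared to 11.7% of all genes, and none an adjusted p under 0.05. Me1, the malic enzyme that yields NADPH, was at 62.2, 43.6 and 63.7 FPKM in PF as compared to 24.7, 25.7 and 32.0 FPKM in AF, without overlap (difference -1.0, unadjusted p = 0.00163, adjusted p = 0.125 from limma). Acacb, an acetyl-CoA carboxylase, was higher by 0.57 (unadjusted p = 0.0467 from limma). With MNA, Me1 was at 45.9, 44.9 and 35.1 FPKM, above all AF libraries (difference 0.59, unadjusted p = 0.0108, adjusted p = 0.940 from limma).

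Of 16 tested genes for the transcriptional control of lipid synthesis, Insig1 alone had an unadjusted p under 0.05 in AF against PF, and none had an adjusted p under 0.05. Insig1, which holds SREBP precursors in the endoplasmic reticulum, was at 59.9, 43.8 and 42.1 FPKM in PF as compared to 18.0, 21.3 and 34.8 FPKM in AF, without overlap (difference -0.98, unadjusted p = 0.00934, adjusted p = 0.263 from limma). In AF with MNA against PF, 3 genes were higher and 3 lower at an unadjusted p under 0.05 (14.5% of all genes in either direction, 7.94% lower), with Scap, the escort of SREBP, at -0.33, Nfyb, a subunit of the factor that binds CCAAT, at -0.35 and Ppara at 0.43.

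PPAR alpha targets are genes that the receptor is known to switch on, many of them in fatty acid oxidation. They had the medians farthest from 0 of the 8 lists in the comparisons with MNA. Of 14 tested genes, 8 were higher in AF with MNA than in PF at an unadjusted p under 0.05 and 0 lower, 2 of them with an adjusted p under 0.05, where 14.5% of all genes had an unadjusted p under 0.05 in either direction. The median difference was 0.75 against -0.02 over all genes. Acot1, an acyl-CoA thioesterase, rose from 3.12, 5.07 and 4.82 FPKM in PF to 20.0, 24.0 and 26.6 FPKM (difference 2.21, adjusted p = 0.0171 from limma). Cyp4a14, a fatty acid hydroxylase, rose from 62.6, 45.7 and 28.9 FPKM to 233, 233 and 324 FPKM (difference 2.55, adjusted p = 0.0395 from limma). In AF against PF the median of the list was 0.13, and no gene had an adjusted p under 0.05. Cyp4a14 differed by 1.89 there (adjusted p = 0.155 from limma), while Fabp1, the liver fatty acid binding protein, differed by -1.22 (unadjusted p = 0.0293 from limma). In AF with MNA against AF 4 of 14 had an unadjusted p under 0.05, all higher, as compared to 5.21% of all genes and 2.91% with a higher level, and the median was 0.67, with Acaa1b, a peroxisomal thiolase, at 0.99 (unadjusted p = 0.0117, adjusted p = 0.940 from limma). Among the members, Fads2 carries the PPAR signaling term. Against PF it was lower in both AF (-1.23) and AF with MNA (-0.73), and a part of PPAR alpha in its level was not tested.

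The last 2 lists concern the use of the products. The first list covers genes that place acyl chains in phospholipids or remove them. Of its 8 tested genes, Agpat2 alone had an unadjusted p under 0.05 in AF against PF (difference -0.53, unadjusted p = 0.0226 from limma). No gene of this list did in the other comparisons. Of 7 tested genes of peroxisomal shortening, which completes the synthesis of docosahexaenoic acid, Scp2, a thiolase and sterol carrier, was at 132, 146 and 110.4 FPKM in PF as compared to 51.5, 67.1 and 52.9 FPKM in AF (difference -1.17, unadjusted p = 0.000384, adjusted p = 0.0798 from limma). With MNA, Scp2 was at 52.5, 91.5 and 98.0 FPKM, below PF in every library (difference -0.72, unadjusted p = 0.0333 from limma).

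**Figure D5:**
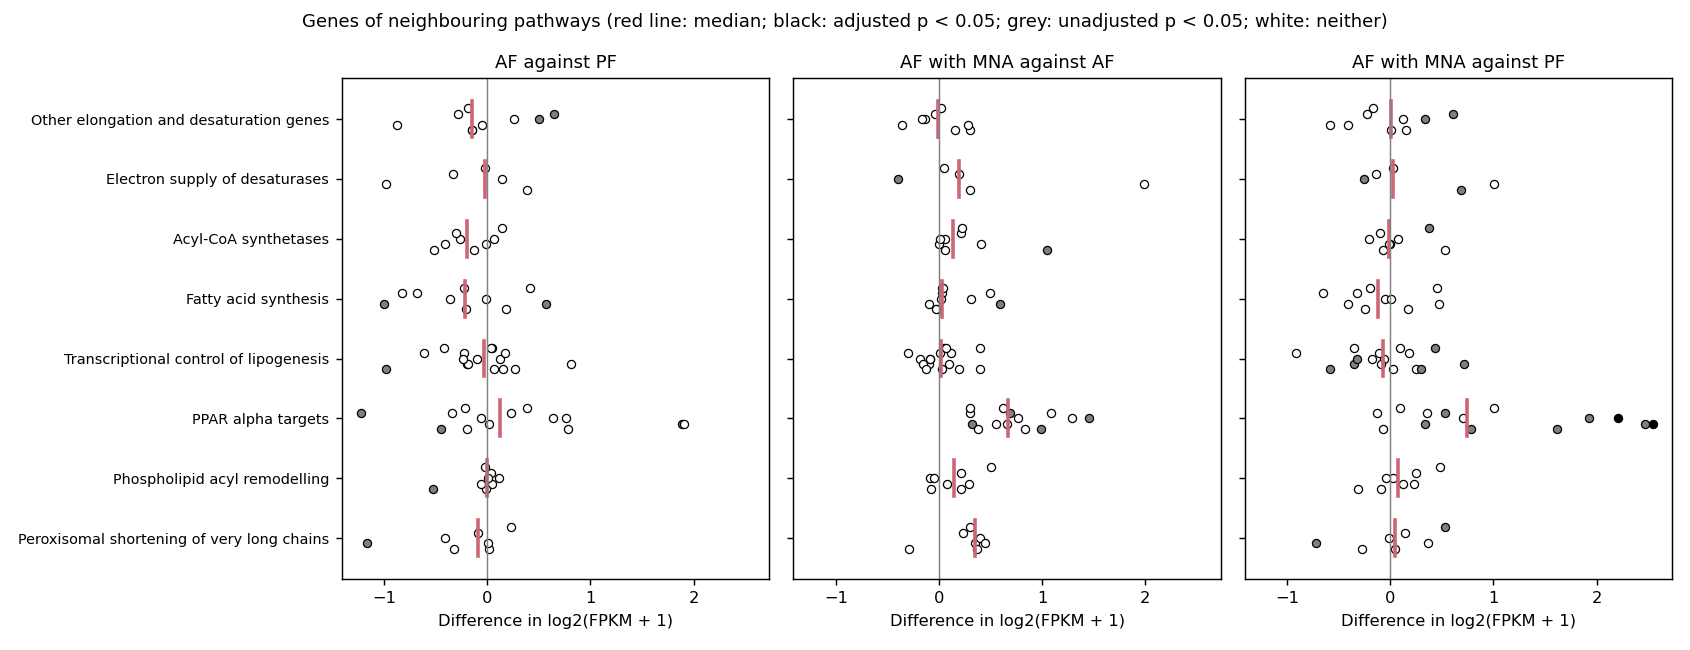
Difference on the log2(FPKM + 1) scale (horizontal axis) of each tested gene of 8 pathway lists in the 3 comparisons, with a red line at the median of each list; black marks an adjusted p under 0.05, grey an unadjusted p under 0.05 and white neither. The PPAR alpha target list has the medians farthest from 0, at 0.67 and 0.75 in the comparisons with MNA, and holds the 2 black points.

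Markers of other liver cells were set beside these results. The 5 sinusoidal endothelium markers summed to between 19.7 and 24.3 FPKM in PF, 24.9 and 36.2 FPKM in AF and 30.4 and 33.8 FPKM in AF with MNA, so that PF was lower than both other groups. The 5 cholangiocyte markers summed to between 3.27 and 4.31 FPKM in PF and between 4.86 and 9.12 FPKM in AF, and to between 3.34 and 6.33 FPKM in AF with MNA. The 4 neutrophil markers summed to between 0.17 and 0.75 FPKM in PF, 0.73 and 2.03 FPKM in AF and 0.27 and 0.73 FPKM in AF with MNA. The 3 detected adipocyte markers summed to between 0.33 and 0.54 FPKM in PF, 0.44 and 1.64 FPKM in AF and 0.83 and 1.68 FPKM in AF with MNA, so that PF and AF with MNA did not overlap. The 5 T or B cell markers summed to between 0.81 and 1.08 FPKM in PF and at most 0.60 FPKM in the other groups. The 6 stellate cell or fibroblast markers overlapped between the groups (10.8 to 17.7 FPKM in all), and the 2 detected erythroid markers lay between 164.3 and 409.3 FPKM with overlap. No marker of the endothelium, cholangiocyte and T or B cell lists was at 0 in all libraries of a group, while 1 neutrophil marker was at 0 in all AF with MNA libraries and 1 adipocyte marker in all PF and in all AF libraries. Their part in the differences of the members was not tested.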

How the data were processed

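Ribosomal-depleted, strand-specific paired-end RNA-seq of liver was used in 9 libraries (PF, AF and AF with MNA, 3 each), grouped by the sample labels. Gene FPKM values were computed by the authors with StringTie from transcripts merged across the libraries, deposited as 1 table rounded to 2 decimals. The submitters' processing notes name StringTie 1.3.4, cutadapt 1.9, FastQC, HISAT2, TopHat and edgeR without a role for each, and the genome build is not given in the sources used here; gene positions were taken from GENCODE M21 (GRCm38), where the known transcripts of all 10 entries were found. The lncRNA FPKM values and the circRNA junction counts with their normalized signal were deposited by the authors as well, and the ratio of count to signal, constant in each library, gave the relative depth. All per-sample columns used were matched to a library (0 were left unmatched).

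Entries without a known transcript (3 under the members' names) were left out of the tests. Values were transformed as log2(FPKM + 1), which understates the change of low genes. limma 3.58.1 (R 4.3.3; lmFit, eBayes with a trend, two-sided) was run on every gene whose mean over the 6 libraries in question reached 0.5 FPKM, with Benjamini-Hochberg adjustment over all genes. The fold and p limits that the study states for lncRNAs were applied here to genes, as an unadjusted limma p below 0.05 and a log2 ratio of mean FPKMs beyond 1. An exact permutation test of 3 against 3 libraries cannot go below p = 0.1 and was not used. The analysis was tested on simulated data. Python 3.11.15, pandas 2.3.3, numpy 2.4.6 and matplotlib 3.10.9 were used.

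The members and the gene lists were chosen with earlier results of these data known. All members are given; of each list at most 4 genes with the lowest p in the comparison described are named, and for the 3 members with the highest SD over the 9 libraries the 3 genes with the most similar centred profile. Alternatives were a pseudocount of 0.1, scaling of libraries to a common median, eBayes without the trend, a single fit of all 9 libraries, a block for the replicate number, no filter or a minimum of 2 FPKM, an unmoderated linear model with a library-size covariate, each library left out, and, added after the data were seen, AF with MNA against AF without AF 3 and AF with MNA 1. The library-size covariate was the sum of the log2(FPKM + 1) values above 0 and below their upper quartile in each library. It is not the sequencing depth. Columns of the authors' own comparisons were not used. The values of 2 genes of the lists are not reported here.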

Additional observations from a re-analysis of the deposited data

Results flagged for a closer look

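These signals lie outside the 10 entries compared and were looked at because they exceeded the PF libraries. The highest value in AF and AF with MNA was set against the highest in PF alone, which has fewer libraries and so favours an excess. The Elovl5 entry MSTRG.45164, a transcript of 1 exon assembled on the opposite strand within an Elovl5 intron, was at 1.64 FPKM in AF with MNA 1 and listed at 0 in the other 8 libraries. A further assembled Elovl5 entry, MSTRG.45165, was at 1.49 FPKM in AF with MNA 2, 0.46 FPKM in AF 1 and 0.34 FPKM in AF 2, and listed at 0 in PF. The assembled Tecr entry MSTRG.42080 was at 1.26 FPKM in AF with MNA 1 against at most 0.11 FPKM in PF. AF with MNA 1 is an intron-rich library, and whether the intron signal plays a part in its values here was not tested. The lncRNA Gm45823, on the Tecr strand within Tecr, reached 1.20 FPKM in AF with MNA 2, little above its highest PF value of 1.05 FPKM. A circular RNA of Elovl2 had 2 junction reads in AF 2 and 0 in PF, a count too low to compare.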

How the results depend on the processing

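In AF against PF, 1 member, Elovl3, had an adjusted p under 0.05, a count that was 2 with all 9 libraries in the fit, 0 in the unmoderated model with a covariate and 1 whichever library was left out. Over all genes the count of 40 was 86 with all 9 libraries, 24 without a filter on low values, 0 in the covariate model and 25 to 47 when a library was left out. Members with an unadjusted p under 0.05 numbered 3 to 5 in the leave-one-out fits, against 4.

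In AF with MNA against AF, the 2 members with an unadjusted p under 0.05 were 1 with libraries scaled to the same median, 1 without a filter, 1 in the covariate model and 0 to 2 with a library left out. The 6 genes with an adjusted p under 0.05 were 0 with all 9 libraries, 2 without a filter, 2 at a minimum of 2 FPKM, 1 in the covariate model, 3 without AF 3 and AF with MNA 1, and 6 to 13 with a library left out. For AF with MNA against PF, 1 of 4 members kept an unadjusted p under 0.05 in the covariate model, with 3 to 5 when a library was left out, and the 52 genes over all were 22 without a filter, 0 in the covariate model and 24 to 47 with a library left out.

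The sign turned for some members, none of which had an unadjusted p under 0.05 in that comparison with all libraries. In the covariate model the difference was 0.16 for Elovl6 in AF against PF, and 0.042 for Elovl2, 0.79 for Elovl6 and -0.037 for Hacd3 in AF with MNA against PF. Without AF 3 and AF with MNA 1 it was 0.23 for Elovl2 and 0.091 for Elovl5 in AF with MNA against AF. With a library left out, differences ranged from -0.42 to 0.34 for Elovl6 and from -0.72 to 0.28 for Hacd3 in AF against PF. For AF with MNA against AF they ranged from -0.34 to 0.50 for Elovl2, -0.24 to 0.26 for Elovl5, -1.01 to 0.52 for Elovl6 and -0.21 to 0.032 for Tecr. For AF with MNA against PF they ranged from -0.14 to 0.010 for Elovl1, -1.10 to 0.42 for Elovl6, -0.57 to 0.088 for Fads1, -0.23 to 0.60 for Hacd3 and -0.067 to 0.18 for Tecr. The causes were not tested.

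Libraries with the same replicate number had correlations of their deviations, taken over all genes, between -0.08 and 0.06. For libraries with different numbers they were between -0.12 and 0.10. Such a correlation cannot show whether some genes were paired by number. With the replicate number as a block, the counts over all genes with an adjusted p under 0.05 were 18, 1 and 0 in the 3 comparisons in the order above, and members with an unadjusted p under 0.05 numbered 3 in each. The files give no gene counts, so the depth behind each value is unknown beyond the relative depth of the libraries.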
